A study of Mus musculus with 4 samples.

Results

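Cadherin and protocadherin genes were examined in ATAC-seq libraries of cultured mouse periosteal stem/progenitor cells. ATAC-seq reads open chromatin through a transposase that inserts adapters into accessible DNA. The members are the rows of the authors' annotated peak table whose gene name starts with Cdh or Pcdh followed by a digit, or with Pcdha, Pcdhb or Pcdhg. They came to 32 of 15221 annotated peaks, assigned to 15 of 8173 genes. The control group held 2 libraries of genotype Plagl1fl/fl and the knockout group 2 libraries of genotype Ctsk-iCre;Plagl1fl/fl, so both groups carried the floxed allele of Plagl1, a zinc finger transcription factor gene, and only the knockout carried the Cre, which is driven by the cathepsin K gene. The Cre itself and the loss of Plagl1 cannot be told apart in this design. Mandibular angle tissue of 8-week-old mice was digested and the released cells were cultured, with no sorting step in the labels, and kept for 3 days with 50 μg/ml ascorbic acid, 5 mM β-glycerophosphate and dexamethasone. Whether the 2 libraries of a genotype stem from different animals is not in the labels, so p-values may cover technical spread alone.

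Cadherins are calcium-dependent adhesion receptors that bind like molecules on neighbouring cells. Classical cadherins of type I and type II hold catenins on the inner face of the membrane and through them the actin cytoskeleton, and N-cadherin (Cdh2) and cadherin-11 (Cdh11) are the members known for cell contacts among osteoblasts and their mesenchymal precursors. Protocadherins share the extracellular cadherin repeats but not the catenin binding tail. Some protocadherin genes stand alone in the genome, while the alpha, beta and gamma genes form a tandem cluster with many alternative promoters, best known in neurons.

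The authors' deposited tables give 1 fold, 1 test and 1 mean signal per peak, so values per library and their depth are not analysed here. Signal is in CPM, the reads in a peak scaled to library size, averaged over the libraries. Positive folds carry the authors' label gain and are read as higher in the knockout, although no label names the genotype that gained. If the ratio was taken the other way round, every direction given here is the opposite. Calls of gained or lost rest on an edgeR FDR under 0.05. Standard errors (SE) were implied by the deposited F statistic and followed signal almost alone (slope of log2 SE on log2 CPM -0.52, r squared 0.997), so they hold little of a peak's own spread between libraries. The table names a gene only where p was under 0.05 and the log2 fold was 0.2 or more in size, so each member had already passed that rule. Of the 93 genes of these name patterns in the RefSeq table, 78 had no annotated peak, and for them these data say only that no assigned peak met it. In cell cultures, a change in the share of a cell type and a change in accessibility per cell cannot be told apart.

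Few member peaks changed. Of the 32 peaks in the authors' deposited table, 4 passed the FDR, 2 gained and 2 lost, in 4 different genes. That is 12.5% of the member peaks, against 30.6% of all annotated peaks (17.6% gained and 13.1% lost) and 5.62% of all 85925 consensus peaks (3.14% gained and 2.48% lost). By gene, 2 of 15 had a gained peak and 2 had a lost peak, against 24.5% and 20.6% of all genes with an annotated peak. The gained peaks were assigned to Cdh17 and Cdh23, and the lost peaks to Cdh13 and Pcdh18. Member peaks were weaker on the whole, with a median implied SE of 0.203 against 0.164. At or above the median signal of annotated peaks (7.24 CPM) the called share was 15.4% (2 of 13) against 40.9%. Median SEs in that range were 0.122 and 0.118. Below that signal the called share was 10.5% (2 of 19) against 20.4%. Member peaks also lay within 50 kb of the start site less often (50.0% against 72.7%). With 2 calls in each range the shares are coarse, and what lowers them was not tested.

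Folds below 0 were more frequent among the members than among annotated peaks as a whole. In the authors' deposited table, 21 of the 32 member folds (65.6%) were below 0, against 43.3% of all annotated peaks, and the median log2 fold was -0.26 against 0.30. The split followed signal. Among the 13 member peaks at or above the median signal of annotated peaks (7.24 CPM), 12 were below 0 (92.3%, against 55.4% of all annotated peaks in that range). Among the 19 weaker member peaks, 9 were below 0 (47.4%, against 31.2%). The 11 positive peaks had a median signal of 2.72 CPM (1.84 to 10.7) and the 21 negative peaks one of 9.32 CPM (1.86 to 37.1). Pcdh18, Cdh2 and Pcdh7 each gave more than 1 of the 12 stronger negative peaks, so the shares count peaks and not genes. These shares are descriptions, and no test of the members as a set was made.

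**Figure D1:**
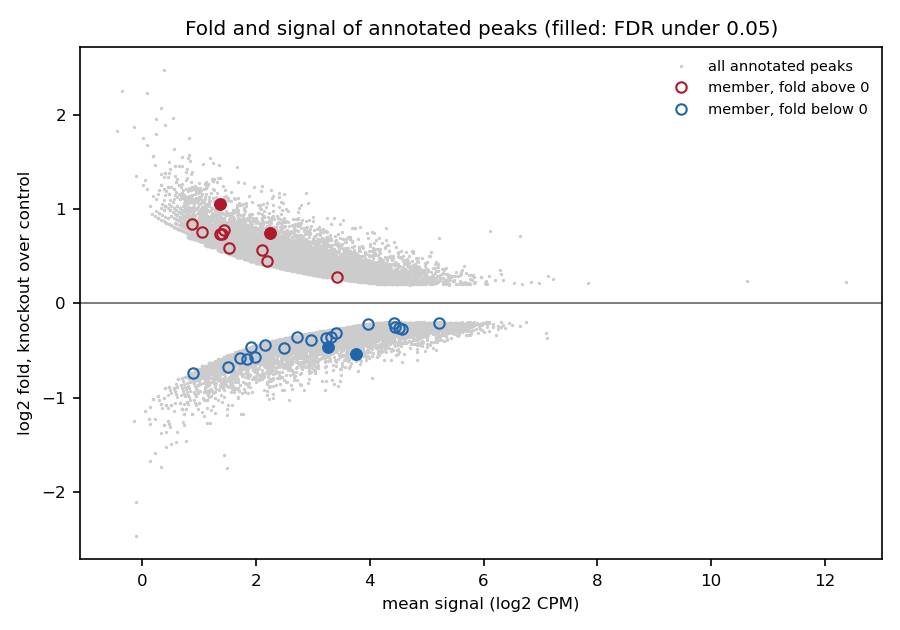
Log2 fold (knockout over control) against mean signal (log2 CPM) for the 15221 annotated peaks (grey) and the 32 member peaks (circles, filled where the FDR is under 0.05). The empty band around 0 comes from the rule for annotation, and 12 of the 13 member peaks at or above 7.24 CPM lie below 0.

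No peak over a member start site passed the FDR. The distances in the deposited table placed the start sites of 14 of the 15 genes, of which 9 lay inside a consensus peak. Peaks beside a start site were not counted. Such peaks lay 672 bp from the start site of Cdh13 and -647 bp from that of Cdh23. Both had log2 folds above 0, at 0.07 (SE 0.147) and 0.34 (SE 0.260). Of the 9 start site peaks, 8 had a log2 fold below 0 in the authors' deposited table (median -0.19, range -0.35 to 0.11), 4 of the 9 had an unadjusted p under 0.05, and 0 passed the edgeR FDR. Those 4 (Cdh2, Pcdh9, Pcdh18 and Pcdh19) are rows of the annotated table, so their p and the size of their folds were set by the rule for annotation. The 5 others (Cdh11, Cdh22, Pcdh7, Pcdhac2 and Pcdhgc3) are not, and 4 of the 5 folds were below 0, with a median of -0.03. Stronger peaks had lower folds across the whole table, with running medians from -0.06 to 0.02 at the signals of these 9 peaks, and with that trend subtracted 6 of the 9 folds were below 0 (median -0.15), among them 2 of those 5.

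The promoters of 4 delta protocadherins are shown as a choice among the 8 member genes with a promoter window. The text gives the fold of the peak over each of these start sites. Pcdh9 had 2 windows, of which 1 is shown. Each line gives the 250 bases before the RefSeq start site, 5′ to 3′ on the gene's strand, in build GRCm38.p6, with capitals for the KLF core CACCC on either strand. That these start sites match those behind the deposited distances to the base was not tested. The windows are chr5:57717831-57718080 (plus strand) for Pcdh7, chr14:93890680-93890929 (minus) for Pcdh9, chr3:49757317-49757566 (minus) for Pcdh18 and chrX:133688994-133689243 (minus) for Pcdh19.
Pcdh7: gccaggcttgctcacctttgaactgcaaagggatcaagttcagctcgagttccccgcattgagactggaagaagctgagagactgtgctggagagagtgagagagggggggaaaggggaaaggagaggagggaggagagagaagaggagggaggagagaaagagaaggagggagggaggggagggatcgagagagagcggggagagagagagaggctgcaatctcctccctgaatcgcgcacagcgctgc
Pcdh9: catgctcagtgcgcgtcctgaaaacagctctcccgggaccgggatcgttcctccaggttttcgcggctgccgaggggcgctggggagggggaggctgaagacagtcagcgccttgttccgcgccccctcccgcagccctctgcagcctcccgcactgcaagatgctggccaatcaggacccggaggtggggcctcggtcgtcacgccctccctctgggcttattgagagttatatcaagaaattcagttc
Pcdh18: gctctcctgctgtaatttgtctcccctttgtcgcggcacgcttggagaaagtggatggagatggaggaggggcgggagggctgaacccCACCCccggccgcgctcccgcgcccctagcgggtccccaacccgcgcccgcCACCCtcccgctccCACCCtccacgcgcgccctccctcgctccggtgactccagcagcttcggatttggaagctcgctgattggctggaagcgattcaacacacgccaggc
Pcdh19: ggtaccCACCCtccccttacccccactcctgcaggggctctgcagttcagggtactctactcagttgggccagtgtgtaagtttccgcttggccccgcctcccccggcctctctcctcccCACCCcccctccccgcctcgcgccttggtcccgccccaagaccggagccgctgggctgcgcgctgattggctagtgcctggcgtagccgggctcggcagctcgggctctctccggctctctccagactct
The Pcdh18 window held 3 matches to CACCC, at 162, 111 and 97 bases before the start, and the Pcdh19 window held 2, at 244 and 130 bases, while those of Pcdh7 and Pcdh9 held 0. Of 32851 RefSeq promoter windows of this length, 52.0% held at least 1 match. The other motifs searched on both strands, TGANTCA (AP-1, in 6.75% of all windows), TGTGGT (RUNX, 14.0%), CAGCTG and CACCTG (E-boxes, 13.0% and 17.2%) and GGAATG (TEAD, 12.6%), had no match in these 4 windows. The G and C content was 58.4% for Pcdh7, 63.6% for Pcdh9, 68.0% for Pcdh18 and 69.2% for Pcdh19, against a median of 52.4% over all windows. Promoter windows were held for 8 of the 15 genes.

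Pcdh18, a protocadherin of the delta-2 group, had a promoter peak that reached into exon 1 of 4 (chromosome 3, 49710401 to 49712020, mm39), at 23.6 CPM. Its log2 fold was -0.27 (SE 0.0910, 95% interval -0.45 to -0.09, edgeR FDR 0.0523) in the authors' deposited table, where an absolute fold of 0.272 would have passed. Pcdh19, another delta-2 gene, which is linked to epilepsy in humans, had a promoter peak (chromosome X, 132589367 to 132590290) at 22.9 CPM with a log2 fold of -0.26 (SE 0.0922, edgeR FDR 0.0741) in the authors' deposited table. The promoter peak of Pcdh9, of the delta-1 group (chromosome 14, 94127686 to 94128854), was weaker at 9.99 CPM and had a log2 fold of -0.35 (SE 0.141, edgeR FDR 0.116) in the authors' deposited table. None of the 3 passed adjustment over all peaks, and that their intervals leave out 0 follows from the rule for annotation. With the trend along signal subtracted, the log2 folds of Pcdh18, Pcdh19 and Pcdh9 were -0.21, -0.20 and -0.34. The adjusted p (chi-square, df of 1) was then 0.179, 0.225 and 0.150.

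Pcdh7, also of the delta-1 group, had the strongest start site peak of the 9, at 50.1 CPM. Its log2 fold was -0.03 (SE 0.0624, 95% interval -0.15 to 0.09, unadjusted p of 0.661) in the authors' deposited table. The start site peak of Pcdhgc3, a gamma protocadherin gene of the cluster, had 46.1 CPM and a log2 fold of -0.03 (SE 0.0650, unadjusted p of 0.671) in the same table. Neither peak met the rule for annotation, which fixes that their folds are smaller or less certain than those of the 3 preceding promoters. The 2 weakest start site peaks, at Cdh22 (5.85 CPM) and Pcdhac2 (6.63 CPM), were at -0.18 (SE 0.183) and 0.11 (SE 0.170) on the log2 scale in that table, with intervals that span 0.

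**Figure D2:**
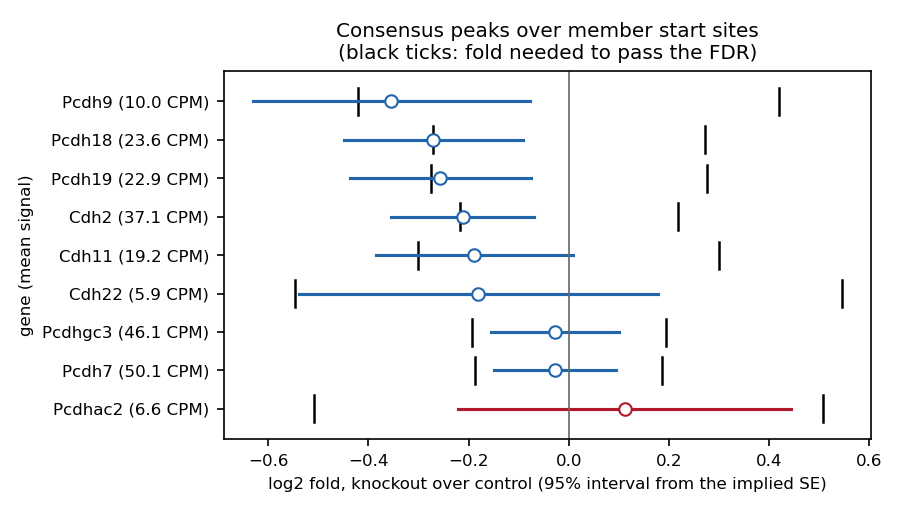
Log2 fold (knockout over control, 95% interval from the implied SE) of the consensus peak over the start site of 9 member genes, with mean signal in brackets. Black ticks mark the absolute fold that each peak needed to pass the edgeR FDR. Pcdh18 (0.272 needed) and Cdh2 (0.218 needed) lie just short of theirs as deposited. With the trend along signal subtracted, their log2 folds are -0.21 and -0.15. The intervals of Cdh2, Pcdh9, Pcdh18 and Pcdh19 leave out 0 by the rule for annotation.

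Of the type I classical cadherins, Cdh2 had 4 annotated peaks, and all 4 folds were below 0 without passing the FDR. The peak over its start site, in the 5′ UTR of exon 1 of 16 (chromosome 18, 16940891 to 16942791), had 37.1 CPM and a log2 fold of -0.21 (SE 0.0728, 95% interval -0.35 to -0.07, edgeR FDR 0.0589) in the authors' deposited table. An absolute fold of 0.218 would have passed there. With the trend along signal subtracted, the log2 fold was -0.15 and the adjusted p (chi-square, df of 1) was 0.237. A second strong Cdh2 peak, in intron 2 of 15 at 95424 bp from the start site, had 21.7 CPM and a log2 fold of -0.25 (SE 0.0948, edgeR FDR 0.0930) in the authors' deposited table. The 2 others, in introns 1 and 6, were weak (1.86 and 2.83 CPM), with log2 folds of -0.73 (SE 0.362) and -0.67 (SE 0.280) in that table. Within 100 kb of the Cdh2 start site, where peaks were taken without regard to p, 9 of 10 consensus peaks had a fold below 0 (median -0.19) and 0 passed the edgeR FDR, while 4 had p under 0.05 before adjustment, 3 of them the annotated Cdh2 peaks already given. The remaining 1, -11765 bp from the start site, is assigned to Gm15328 and had a log2 fold of -0.58 (SE 0.243, edgeR FDR 0.140) in the authors' deposited table.

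Cdh15, which encodes the muscle cadherin of myogenic cells, had 2 annotated peaks, both with folds above 0. The peak 33797 bp from the start site was weak (1.84 CPM), with a log2 fold of 0.84 (SE 0.348, edgeR FDR 0.134) in the authors' deposited table. The peak at 75004 bp had 10.7 CPM and a log2 fold of 0.28 (SE 0.133, edgeR FDR 0.214) in the same table, and it lies inside Ankrd11, in intron 2 of 13. No consensus peak covered the Cdh15 start site. The other type I genes, Cdh1, Cdh3 and Cdh4, had no annotated peak.

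Of the 13 type II classical cadherins, 3 had an annotated peak, 1 each, and none passed the FDR. Cdh11, a marker of mesenchymal and osteoblast lineage cells, was assigned a single intergenic peak, 685878 bp from its start site (chromosome 8, 102825597 to 102826134, 3.93 CPM), with a log2 fold of -0.57 (SE 0.230, edgeR FDR 0.124) in the authors' deposited table. At that distance the assignment rests only on Cdh11 having the nearest start site. The unannotated peak over the Cdh11 start site (103511505 to 103512272) had 19.2 CPM and a log2 fold of -0.19 (SE 0.100, 95% interval -0.39 to 0.01, unadjusted p of 0.0609) in the authors' deposited table. All 6 consensus peaks within 100 kb of that site had folds below 0 (median -0.22), and 0 passed the edgeR FDR or an unadjusted p under 0.05. Cdh20 had 1 peak in intron 1 of 11, on a MaLR repeat, with a log2 fold of -0.36 (SE 0.146, edgeR FDR 0.121), and Cdh22 had 1 in intron 1 of 11 at -0.44 (SE 0.213, edgeR FDR 0.224), both from the authors' deposited table. Cdh5, the endothelial cadherin, and Cdh19, known from Schwann cells, were among the 10 type II genes with no annotated peak.

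**Figure D3:**
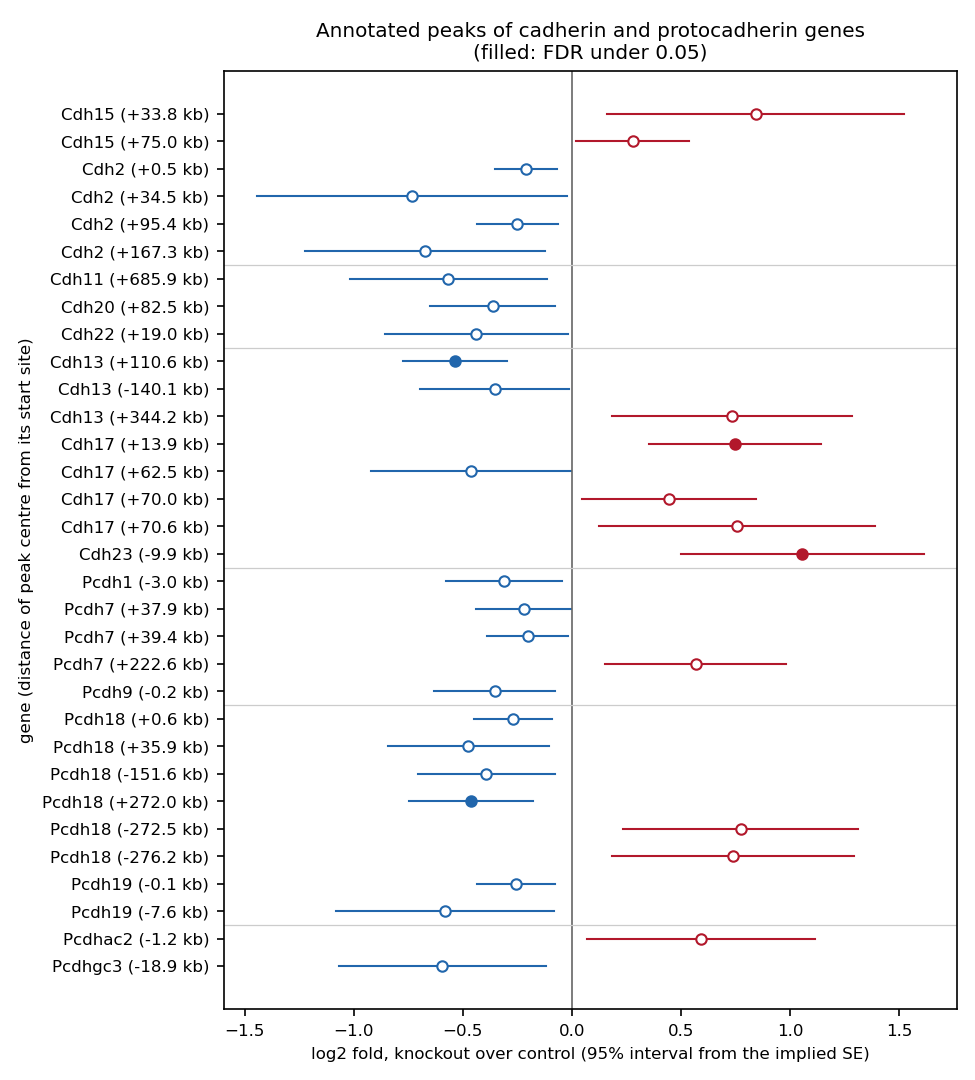
Log2 fold (knockout over control) with its 95% interval from the implied SE for each of the 32 member peaks, by gene and distance of the peak centre from the start site in kb (filled circles: FDR under 0.05). Grey lines part type I, type II and other cadherins, delta-1, delta-2 and clustered protocadherins; the 4 filled peaks belong to Cdh13, Cdh17, Cdh23 and Pcdh18.

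The remaining cadherins held 3 of the 4 called peaks, among 8 annotated peaks, where 30.6% of all annotated peaks were called. Cdh13 encodes T-cadherin, which is anchored by a lipid, lacks the cytoplasmic tail and binds adiponectin. It lost accessibility in intron 1 of 13 at 110579 bp from the start site (chromosome 8, 119120584 to 119121275), with a signal of 13.4 CPM, and the log2 fold there was -0.54 (0.690-fold, SE 0.122, 95% interval -0.78 to -0.30, edgeR FDR 0.00166) in the authors' deposited table. This was the member peak with the smallest p, at rank 680 of the 85925 consensus peaks. Only 2 other consensus peaks lay within 50 kb of it, neither called, at 0.10 (SE 0.345) and -0.43 (SE 0.289) on the log2 scale in the same table. The other 2 annotated Cdh13 peaks went in opposite directions without passing: -0.35 (SE 0.174, edgeR FDR 0.229) at 140131 bp upstream of the start site, and 0.73 (SE 0.279, edgeR FDR 0.0969) on a MaLR repeat in intron 2 in the authors' deposited table. A further peak inside Cdh13, in intron 4 but assigned to Hsbp1, had a log2 fold of -0.26 (SE 0.124, edgeR FDR 0.206) in that table. The unannotated peak beside the Cdh13 start site (8.92 CPM), centred 672 bp from it, had a log2 fold of 0.07 (SE 0.147, edgeR FDR 0.851).

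Cdh17, which encodes the liver-intestine cadherin, gained accessibility in intron 3 of 17 at 13901 bp from the start site (chromosome 4, 11771812 to 11772304), with a signal of 4.73 CPM. The log2 fold was 0.75 (1.68-fold, SE 0.201, 95% interval 0.35 to 1.14, edgeR FDR 0.0106) in the authors' deposited table. The annotation places this peak on an ORR1E element, a MaLR long terminal repeat, and reads from repeats can align to more than 1 copy; how the authors treated them is not given in the sources used here. Its 4 consensus neighbours within 50 kb had log2 folds from -0.46 to 0.43 and none was called. The other 3 annotated Cdh17 peaks, 62544 to 70592 bp from the start site, had log2 folds of -0.46 (SE 0.234), 0.44 (SE 0.204) and 0.76 (SE 0.322) in that table, with an edgeR FDR between 0.148 and 0.246.

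Cdh23, whose protein forms the tip links of inner ear hair cells, gained accessibility at an intergenic peak 9904 bp upstream of its start site (chromosome 10, 60542022 to 60542324). The log2 fold was 1.05 (2.08-fold, SE 0.284, 95% interval 0.50 to 1.61, edgeR FDR 0.0106) at a low signal of 2.59 CPM in the authors' deposited table. A peak at -48445 bp from the Cdh23 start site, inside the nucleoside transporter gene Slc29a3, was gained too, with a log2 fold of 0.47 (SE 0.138, edgeR FDR 0.0220) in the authors' deposited table. Cdh23 is a long gene, and 4 annotated peaks in its introns were assigned to Gm17455, which lies within it. Of these, the peaks in intron 37 of 68 (60209941 to 60210478, 18.2 CPM) and intron 33 (60215321 to 60216429, 20.9 CPM) were gained, with log2 folds of 0.37 (SE 0.102, edgeR FDR 0.0145) and 0.33 (SE 0.0950, edgeR FDR 0.0203) in the authors' deposited table. In introns 28 and 22 the folds did not pass, at 0.44 (SE 0.161, edgeR FDR 0.0796) and -0.57 (SE 0.244, edgeR FDR 0.154) in that table.

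Vsir, an immune checkpoint gene expressed in myeloid cells, also lies within Cdh23 in the RefSeq table, and its own annotated peak (60197926 to 60198432) was gained, with a log2 fold of 0.58 (SE 0.142, edgeR FDR 0.00382) in the authors' deposited table. Beside these gains, 5 of the 6 macrophage and osteoclast markers (Csf1r, Ptprc, C1qb, Acp5 and Spi1, but not C1qa) had annotated peaks, 11 in all. A gained peak was found for all 5 of these genes (9 gained peaks) and a lost peak for 0, beside 24.5% and 20.6% of all genes with an annotated peak. The start site peaks of Acp5 (24.1 CPM) and C1qb (15.1 CPM) were both called, and the authors' deposited table gives them a log2 fold of 0.38 with an SE of 0.0885 and one of 0.55 with an SE of 0.111. Csf1r was called at its start site too (0.42, SE 0.123), Ptprc was not (0.22, SE 0.226, edgeR FDR 0.627), in the authors' deposited table, and no peak covered the start site of Spi1. The part of such cells in the gains around Cdh23 was not tested. All 8 periosteal progenitor markers had an annotated peak (15 peaks), with 2 gained peaks at Ctsk, which osteoclasts also express, and 1 lost at Pdgfra. Endothelial markers had peaks for 3 of 5 genes (8 peaks, with 2 genes gained and 2 lost), osteoblast markers for 2 of 4 (4 peaks, 1 gained), Schwann and neural markers for 2 of 4, and epithelial and skeletal muscle markers for 1 of 4 each, the last 3 lists with no called peak.

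**Figure D4:**
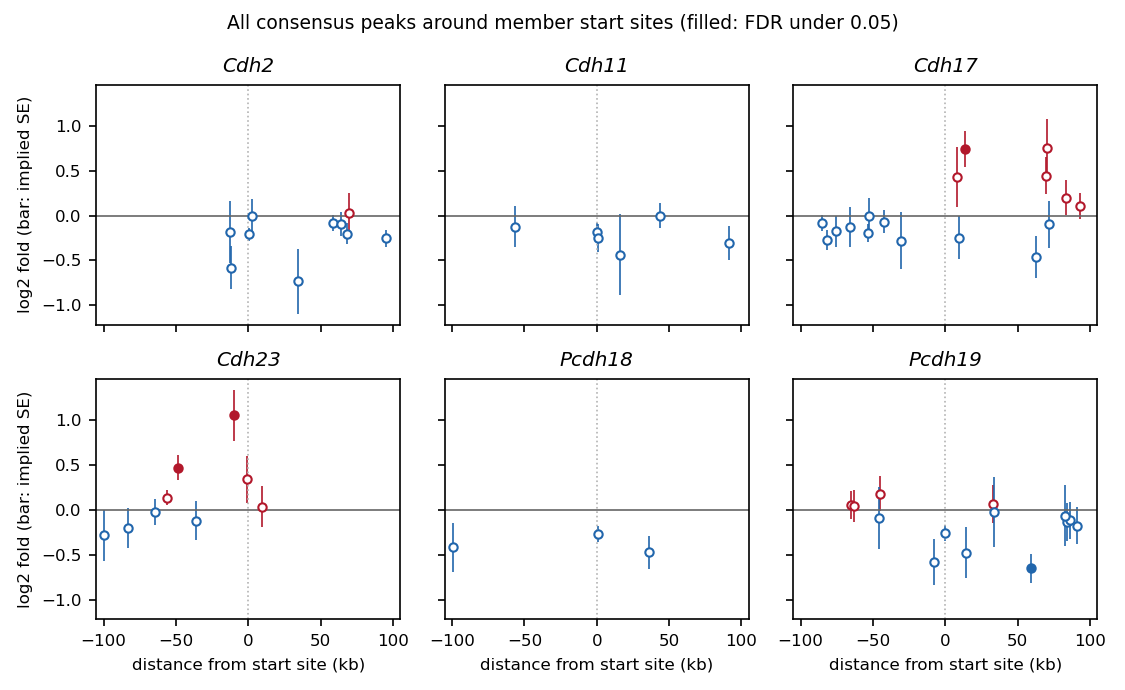
Log2 fold (knockout over control, bars 1 implied SE) of every consensus peak, annotated or not, within 100 kb of the start sites of 6 member genes, against distance along the gene's strand in kb (filled: FDR under 0.05). Folds lie below 0 at 9 of 10 peaks for Cdh2 and 6 of 6 for Cdh11. Called gains lie upstream of Cdh23 and inside Cdh17, and a called loss lies inside Pcdh19.

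Beside 30.6% of all annotated peaks, 1 of 13 among the delta protocadherins passed the FDR. It was a lost intergenic peak assigned to Pcdh18 (chromosome 3, 49439136 to 49440388, 9.56 CPM), 272003 bp downstream of the start site, where the log2 fold was -0.46 (0.725-fold, SE 0.145, 95% interval -0.75 to -0.18, edgeR FDR 0.0330) in the authors' deposited table. No other consensus peak lay within 50 kb of it, so the assignment again rests on the nearest start site alone. Pcdh18 had the most annotated peaks of the 15 genes, 6 in all. Beyond its promoter, the peaks at 35851 bp downstream and 151605 bp upstream had log2 folds of -0.47 (SE 0.189, edgeR FDR 0.117) and -0.39 (SE 0.161, edgeR FDR 0.128) in that table. A pair of weak peaks (2.72 and 2.59 CPM), 272464 and 276246 bp upstream, went the other way, with log2 folds of 0.77 (SE 0.274, edgeR FDR 0.0694) and 0.74 (SE 0.282, edgeR FDR 0.0981) in the authors' deposited table.

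Pcdh19 had a lost peak that the nearest-start rule assigned elsewhere. A peak in intron 4 of 5 of Pcdh19 (chromosome X, 132530067 to 132530877, 7.99 CPM), assigned to the overlapping Gm26851, had a log2 fold of -0.65 (0.637-fold, SE 0.161, edgeR FDR 0.00445) in the authors' deposited table. The second peak assigned to Pcdh19, 7608 bp upstream and inside Gm26851, was weak (3.30 CPM) and had a log2 fold of -0.58 (SE 0.254, edgeR FDR 0.163) in that table. Taken by host transcript rather than nearest start site, 3 peaks were gained (1 in Cdh17, 2 in Cdh23) and 2 lost (Cdh13 and Pcdh19), in place of 2 and 2.

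Pcdh7 had 3 annotated peaks inside the gene. Those at 37897 and 39366 bp from the start site, in intron 1, had 15.7 and 21.4 CPM and log2 folds of -0.22 (SE 0.112, edgeR FDR 0.243) and -0.20 (SE 0.0953, edgeR FDR 0.201) in the authors' deposited table. The peak at 222585 bp had 4.30 CPM and a log2 fold of 0.57 (SE 0.211, edgeR FDR 0.0877) in the same table. Pcdh1, a protocadherin known from airway epithelium, had 1 peak, 2950 bp upstream of its start site, and its log2 fold was -0.31 (SE 0.136, edgeR FDR 0.163) in that table. Neither gene had a called peak.

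Of the clustered protocadherins, 2 of 58 genes had an annotated peak, beside 15 of 93 genes of all the name patterns. Neither peak passed the FDR, which 30.6% of all annotated peaks did. Each peak is assigned to 1 gene by the nearest start site, and what lowers the count in this tandem cluster was not tested. The peak assigned to Pcdhac2, 1240 bp upstream of its start site, had a log2 fold of 0.59 (SE 0.266, edgeR FDR 0.177) at 2.87 CPM, and the peak assigned to Pcdhgc3, on a LINE repeat inside Pcdhga12, had -0.59 (SE 0.243, edgeR FDR 0.128) at 3.58 CPM in the authors' deposited table. Between the start sites of these genes lie 663 kb of chromosome 18 with the beta and most gamma genes. There, 17 consensus peaks had a median signal of 2.07 CPM, against 5.51 CPM over all consensus peaks, and 14 of the 17 folds were above 0 (median 0.16). Weak peaks ran positive across the whole table, with a median running median of 0.10 at the signals of these 17, and with that trend subtracted 11 of the 17 were above 0 (median 0.07). The edgeR FDR was passed by 0 of these 17, and p before adjustment was under 0.05 for 1. At their median SE an absolute log2 fold of 0.97 was needed to pass, so a smaller change would not have been called at such a peak. Less was needed at the stronger peaks, which reached 25.1 CPM.

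Peaks near member start sites, taken without regard to p, were called in a share near that of all consensus peaks. Within 50 kb of the 14 solved start sites there were 69 consensus peaks, of which 3 were gained (1 at Cdh17, 2 at Cdh23, 1 of the latter inside Slc29a3) and 0 lost, a share of 4.35% against 5.62%. An unadjusted p under 0.05 was found for 17 of the 69 (24.6%, against 19.8% of all consensus peaks), where start sites could be solved only for genes that have an annotated peak. Folds below 0 made up 60.9% of the 69, against 49.6% of all consensus peaks, with a median of -0.03.

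Genes that work with the cadherins moved in both directions. Of 60 such genes in 4 lists (large cadherins and cadherin-related genes, desmosomal cadherins, catenins and other cytoplasmic partners, and nectins with cadherin regulators), 22 had an annotated peak (71 peaks in all). Of these 22, 10 had a gained and 6 a lost peak, beside 24.5% and 20.6% of all genes with an annotated peak. Both kinds were found at 2 genes, Fat4 and Pik3r1. The gained Fat4 peak lay 382369 bp downstream of its start site and the lost Pik3r1 peak 346132 bp upstream of its own. These 2 assignments rest on the nearest start site alone. By peak, 17 of the 71 were gained and 9 were lost, beside 17.6% and 13.1% of all annotated peaks. The lists differ in peaks per gene, and no test of them was made. Among large cadherins, which are known for planar polarity and tissue growth, Fat1 had 3 lost peaks, the one with the smallest FDR 12015 bp upstream of its start site at a log2 fold of -0.29 (SE 0.0721, edgeR FDR 0.00390) in the authors' deposited table. Fat4 had 1 gained peak, with a log2 fold of 0.34 (SE 0.0990, edgeR FDR 0.0219), and 1 lost peak at -0.22 (SE 0.0683, edgeR FDR 0.0301), both from the authors' deposited table. With the trend along signal subtracted, the adjusted p (chi-square, df of 1) was 0.00512 at the gained Fat4 peak and 0.161 at the lost one. At the 3 Fat1 peaks it was 0.0368, 0.0770 and 0.0765.

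Among catenins and cytoplasmic partners, 9 of 19 genes had an annotated peak, 3 of them with a gained and 1 with a lost peak. The plakophilin gene Pkp1 had a gained peak with a log2 fold of 0.90 (SE 0.249, edgeR FDR 0.0131), and Arvcf, a catenin of the p120 family, had a lost peak at -0.28 (SE 0.0862, edgeR FDR 0.0307), both from the authors' deposited table. Ctnnd1, the gene of p120 catenin itself, had a gained peak in intron 1 of 15 at 0.81 (SE 0.245, edgeR FDR 0.0265) in that table, named after its value was seen. With the trend along signal subtracted, the adjusted p (chi-square, df of 1) was 0.0277 at Pkp1, 0.0486 at Ctnnd1 and 0.132 at Arvcf. Among nectins and regulators, 9 of 15 genes had an annotated peak, 6 of them with a gained and 3 with a lost peak. Zeb2, a repressor of E-cadherin transcription, had 4 gained peaks, all intergenic, with log2 folds from 0.48 to 0.88 (smallest edgeR FDR 7.04e-06 at a peak whose fold was 0.75, SE 0.129) in the authors' deposited table. All 4 Zeb2 peaks lay far upstream of the Zeb2 start site, at 79743 to 162187 bp. Their assignment to Zeb2 rests on the nearest start site alone. The promoter of Twist1, another transcription factor known to repress E-cadherin, was lost at -0.30 (SE 0.0674, edgeR FDR 0.00128) in the authors' deposited table. Cdh1, the E-cadherin gene, had no annotated peak, and none of the 9 desmosomal cadherin genes had one. Whether the Zeb2 or Twist1 peaks bear on Cdh1 was not tested.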

How the data were processed

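ATAC-seq libraries of 2 control and 2 knockout cultures were compared by the authors. Per the submitters' processing notes, the build was mm39 and the tools included DiffBind 3.16.0, HOMER, Bowtie2 2.5.4, SAMtools 1.21, Trim Galore 0.6.10, deepTools 3.5.5 and GATK 4.5.5.0, with no roles given. No source used here gives the peak caller, the transposase shift or the library normalization. Per the file headers, the authors deposited for each peak the log2 fold, the mean log2 CPM, the F statistic (a score) and the p-value with its FDR from edgeR, and for 15221 peaks a gene, region and distance to the nearest start site.

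From these, the SE was taken as the size of the log2 fold divided by the root of F, since the deposited p-value matched a chi-square with df of 1 (median ratio 1.00), and 95% intervals from the normal quantile. Start sites were solved from distances that fit 1 strand over several peaks, from the strand in the RefSeq table, or from the 1 candidate inside a consensus peak. RefSeq tables of GRCm38.p6 gave transcript names, gene neighbours and promoter sequences only. A running median of fold over 2000 peaks was subtracted, or a coefficient of variation of 0.1 added, as alternatives. Steps were tested on simulated data. The naming rule took genes with a called or promoter peak and Cdh2, Cdh11 and Cdh13; with 15 genes, all were described. In other lists it took the gene with the smallest FDR per direction. Members and lists were chosen with earlier results of these data known. Called is a deposited FDR under 0.05. Software was scipy 1.17.1, matplotlib 3.10.9, pandas 2.3.3 and numpy 2.4.6 under Python 3.11.15.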

Additional observations from a re-analysis of the deposited data

How the results depend on the processing

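With an assumed coefficient of variation of 0.1 between libraries, 0 member peaks and 0 member genes were gained or lost, 0 peaks within 50 kb of a member start site were gained, and 0 partner genes were gained or lost (adjusted again over all peaks of the authors' edgeR comparison; 55 of 85925 consensus peaks passed). The adjusted p was then 0.330 at Cdh13, 0.283 at Cdh17, 0.206 at Cdh23 and 0.518 at Pcdh18. With an FDR under 0.01, 0 gained and 1 lost member peak were left, 0 and 1 by gene, and 2 gained and 2 lost partner genes. With calls limited to log2 folds of 0.5 or more in size, 1 member peak was lost, in 1 gene, and 1 partner gene was lost. Within 50 kb of the assigned start site, 0 member peaks or genes were lost and 5 partner genes were gained. With repeats left out, 1 member peak in 1 gene was gained. In a window of 100 kb around start sites 1 peak was lost, in intron 4 of Pcdh19. After subtraction of the running median along signal, all 32 member peaks kept their side of the threshold. They kept their direction too, but the annotation rule had already required a log2 fold of 0.2 or more in size, so this adds little. With the same subtraction, 10 partner genes were gained and 5 lost. Peaks that no longer passed included a lost one each at Arvcf, Fat4 and Nectin1 and a gained one at Adam10. No paired analysis was possible because the tables hold no values per library, and leaving out a replicate was not run for the same reason.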
